A study of Homo sapiens with 3 samples.

Results

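The genes described here are 29 targets and feedback regulators of p53, chosen by name from a list of textbook p53 target genes and matched to the gene symbols of the deposited table, which lists 19225 symbols. All 29 were in the table. For each gene the transcript with the most reads over the 3 libraries was used. The genes were placed in 5 subgroups by role: feedback on p53 (5 genes), cell cycle arrest (6), cell death and survival (8), DNA repair (4), and metabolism, redox balance and secreted signals (6).

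RNA was sequenced from 5637 cells, an established human bladder cancer line, transfected by a lipid reagent with a control siRNA (siNC, 1 library) or with siRNA against the mitotic entry gene CDCA3 (2 libraries, siCDCA3-1 and siCDCA3-2), to find genes downstream of CDCA3. The labels give genotype WT and RPMI medium with serum for all 3 libraries and no time after transfection. Whether the numbers 1 and 2 stand for separate siRNA sequences or for cultures of the same siRNA is not stated. Gene-level counts were 50912733 in siNC, 40420563 in siCDCA3-1 and 62389922 in siCDCA3-2. Levels are given as RPKM, a read count divided by the length of the transcript and by the size of the library. Values listed by themselves are in the order siNC, siCDCA3-1, siCDCA3-2. CDCA3 itself had 5.52, 0.574 and 1.40. The 6 epithelial markers, keratins and adhesion molecules, summed to an RPKM between 765 and 1292, whereas the endothelial pair summed to no more than 0.0747 and the leukocyte markers to no more than 1.95. The fibroblast pair summed to 7.09, 8.49 and 2.33, nearly all of it COL1A1, a collagen that was lowest in siCDCA3-2 (6.96, 8.33 and 2.26), and the part of this in the results was not tested. Among the leukocyte markers only CD68, which is also made in other cells, reached a mean RPKM of 1.

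p53 is a transcription factor that is held at a low level by the ubiquitin ligase MDM2 and its partner MDM4. DNA damage and other stresses release it from them, and it then switches on genes that stop the cell cycle, repair DNA, change metabolism or start cell death, together with MDM2 itself, which closes a negative feedback loop. The 5637 line is known, as background that the labels do not mention, to carry mutant p53, which limits it as a model of this pathway.

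p53 binds a paired element, 2 half-sites of 10 bases separated by a spacer of 0 to 13 bases. The elements found at the start sites of members are shown because p53 acts through sequences of this kind. A window of 250 bases before and 50 bases after each annotated start (RefSeq, GRCh38.p14) was searched on the strand of the gene for the p53 response element, whose consensus reads the same on both strands, with the 2 fixed bases of each half-site kept and at most 2 mismatches in all. Of the members, 24 had at least 1 window. TNFRSF10B, TP53INP1, RRM2B, PHLDA3 and GADD45A had none. The members had 35 windows in all. An element was found in 5 members, counted by gene, and in 2.93% of the 35116 windows of all genes, counted by window. The 2 counts are unlike and the members were picked as p53 targets, so nothing is read from them. The half-sites are in capitals and the spacer in lower case, 5′ to 3′ on the strand of the gene.
MDM2 (chr12:68808923-68808942, plus strand): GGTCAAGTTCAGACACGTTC
FAS (chr10:88991309-88991328, plus strand): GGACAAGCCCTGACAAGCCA
DDB2 (chr11:47214979-47214999, plus strand): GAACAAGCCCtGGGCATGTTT
AEN (chr15:88621306-88621325, plus strand): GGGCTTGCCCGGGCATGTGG
FDXR (chr17:74872996-74873025, minus strand): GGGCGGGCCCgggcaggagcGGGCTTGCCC
The DDB2 element had 0 mismatches, which was so in 10 of the 35116 windows, and the other elements had 2. A match is a description of the letters and does not show that p53 was bound.

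Across the 29 genes, GDF15 was far below siNC in both siCDCA3 libraries. On the log2(RPKM + 1) scale described below, PLK2, PLK3 and BBC3 were at least 2-fold from siNC in 1 of them. By RPKM alone other members were also more than 2-fold lower. These were RRM2B (31.9% of siNC) and GADD45A (49.7%) in siCDCA3-1, and BTG2 (43.7%) and CCNG1 (47.5%) in siCDCA3-2. SPATA18, which had few reads, was lower in both (31.0% and 21.9%). No member passed edgeR's quasi-likelihood test of siCDCA3 against siNC with Benjamini-Hochberg adjustment over all 10153 genes tested, where 0.0295% of genes were called lower and 0% higher. Genes were tested when their mean RPKM was at least 1, which 24 members reached. MDM4, ZMAT3, POLH, TIGAR and SPATA18 did not. Every tested member had an edgeR adjusted p of 0.9997. GDF15 was the only one with an unadjusted p under 0.05, against 1.32% of all genes tested. DESeq2 also called 0 members (0.0788% of genes called lower and 0.0197% higher), as did limma (0% each way), with GDF15 again the only one at an unadjusted p under 0.05. With a single control library, which the fit assumes to vary like the siCDCA3 libraries, a member that misses the threshold may still have changed. The targeted gene CDCA3 missed it too, at 10.4% and 25.3% of siNC (edgeR adjusted p = 0.9997, 0.00246 before adjustment). Nothing in the labels says that the 2 siCDCA3 libraries came from separate cultures, so p-values may not measure a spread between cultures. They rest on the spread between these 2 libraries, which the fits pool in part over all genes tested. In RNA from whole cultures, fewer expressing cells and less RNA per cell cannot be told apart.

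**Figure D1:**
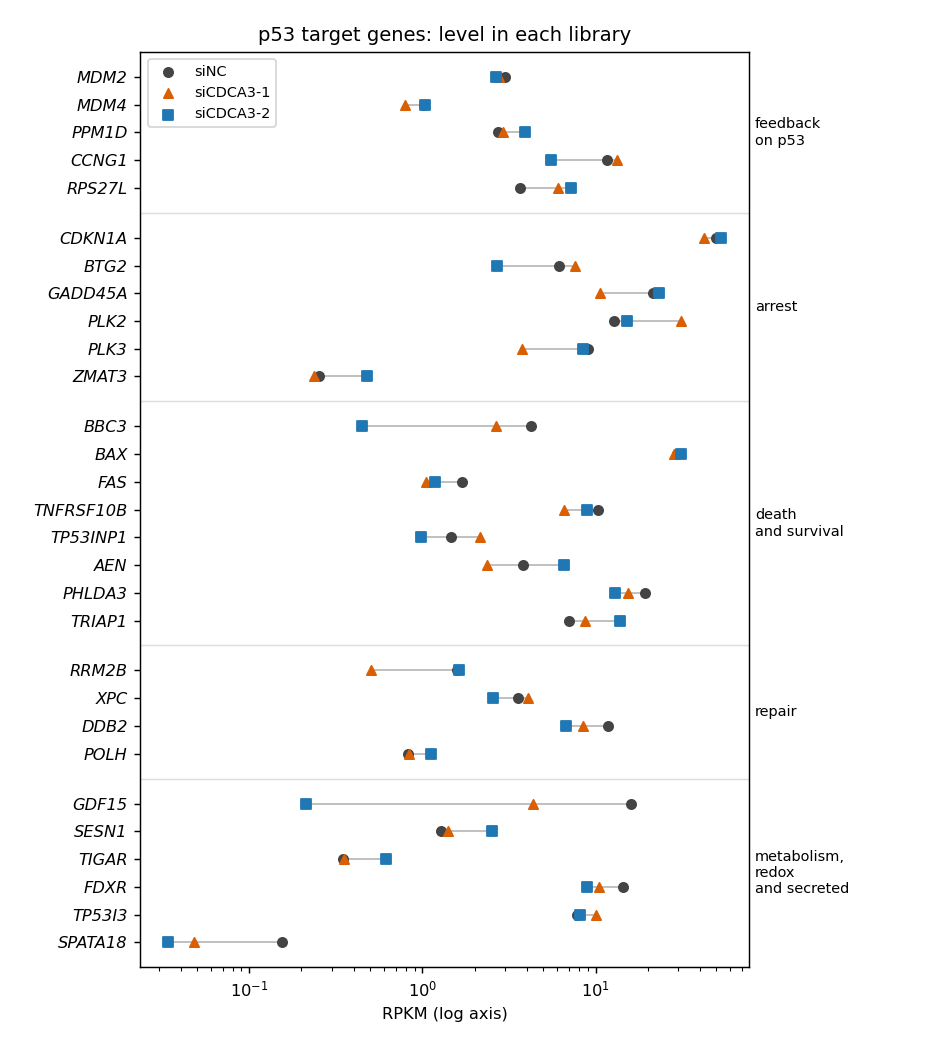
RPKM (log axis) of each of the 29 genes in siNC (circles), siCDCA3-1 (triangles) and siCDCA3-2 (squares), 1 library each, with a grey line joining the lowest and highest library of a gene. CDKN1A and BAX are near the top in all libraries, whereas GDF15 runs from 16.1 in siNC to 0.214 in siCDCA3-2.

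Sizes were compared as differences in log2(RPKM + 1), a scale on which a pseudocount of 1 shrinks the differences of low genes. In siCDCA3-1 the median difference from siNC over the 29 genes was -0.086 and 17 of them were lower, while the median over all genes tested was -0.067 and 58.6% of those were lower. In siCDCA3-2 the members' median was 0.002 and 14 were lower, beside 0.046 and 45.6% over all genes tested. The medians of all 29 were close to those of the genes tested, but the 2 sets are unlike. The 29 include MDM4, ZMAT3, POLH, TIGAR and SPATA18, which were too low to be tested and whose differences the pseudocount shrinks. These 5 all lay within 0.5 of siNC in both libraries, so they pull the medians and the shares below towards siNC. Without these 5, the members' median was below siNC and below that of all genes tested in each siCDCA3 library, which was not tested. The medians also take in members that lay on either side of siNC. Within 0.5 of siNC on this scale were 20 of the 29 members in siCDCA3-1 (69.0%, beside 83.9% of genes tested) and 18 in siCDCA3-2 (62.1%, beside 74.2%), so a smaller share of members than of genes lay close to siNC, a difference that was not tested. Both differences are taken from the same siNC library, so they are not independent of each other. At least a 2-fold decrease in siCDCA3-1 was seen in 2 members (GDF15 and PLK3), where 1.74% of genes tested had one, and a 2-fold increase in 1 (PLK2), beside 0.847%. In siCDCA3-2 a 2-fold decrease was seen in 2 members (GDF15 and BBC3), beside 3.27% of genes, and a 2-fold increase in none, beside 1.42%. GDF15 was the single member at least 2-fold lower in both libraries, where 0.719% of genes tested were, and 0 members were 2-fold higher in both, beside 0.0985%.

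**Figure D2:**
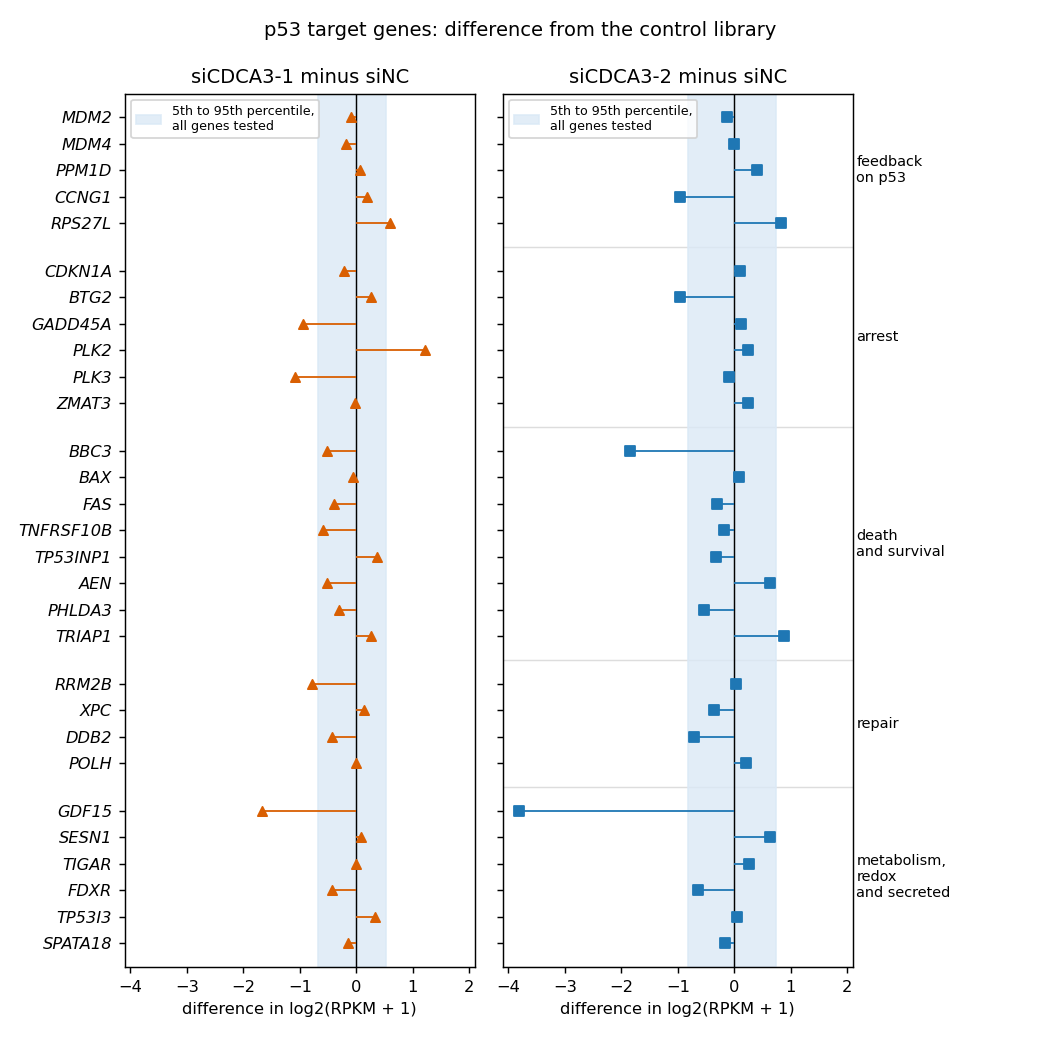
Difference from siNC in log2(RPKM + 1) for each of the 29 genes, in siCDCA3-1 (left) and siCDCA3-2 (right), with the 5th to 95th percentile of all genes tested shaded (-0.679 to 0.533 and -0.826 to 0.737). In each panel 4 members lie below the shaded range and 2 above it, and GDF15 is the lowest of them in both.

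Most feedback genes lay close to siNC, apart from CCNG1 in siCDCA3-2 and RPS27L in both siCDCA3 libraries. MDM2, the ubiquitin ligase that marks p53 for degradation, had 3.004, 2.772 and 2.645. The libraries lie close together, and edgeR gave a log2 fold change of -0.13 (standard error 0.49). MDM4, which masks the activation domain of p53, was low throughout, with 1.03, 0.790 and 1.03, so siCDCA3-2 matched siNC.

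PPM1D, the phosphatase Wip1 that removes activating phosphates from p53, had 2.73, 2.91 and 3.93. CCNG1, a cyclin that brings a phosphatase to MDM2, had 11.6, 13.3 and 5.50. The siCDCA3 libraries thus lay on opposite sides of siNC for CCNG1, at 115% and 47.5% of its level. RPS27L, a ribosomal-protein-like protein that binds MDM2, had 3.65, 6.06 and 7.26, so both siCDCA3 libraries were above siNC, at 166% (95% counting interval 148% to 187%) and 199% (179% to 221%). edgeR gave it a log2 fold change of 0.87 (standard error 0.63, unadjusted p = 0.1891). RPS27L resembles its paralogue RPS27 closely, and the sources used here do not say how reads shared by them were counted.

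Arrest genes included the most abundant member. CDKN1A, which encodes the CDK inhibitor p21 and is the best known p53 target, ranked first of the 29 genes by RPKM in every library, with 49.7, 42.5 and 53.2. The siNC value lay between the siCDCA3 values, and edgeR gave a log2 fold change of -0.05 (standard error 0.50).

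Of the other arrest genes, 4 stood apart from siNC mainly in 1 siCDCA3 library. GADD45A, a growth arrest protein that binds the replication clamp PCNA, had 21.4, 10.6 and 23.4, with siCDCA3-1 alone low. PLK3, a polo-like kinase of the stress response, had 9.03, 3.74 and 8.44, again low in siCDCA3-1 only, at 41.4% of siNC (38.5% to 44.6%). PLK2, a related stress kinase, had 12.8, 31.1 and 15.3, and stood out as high in siCDCA3-1, at 243% of siNC (235% to 252%).

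BTG2, an antiproliferative protein that speeds mRNA deadenylation, had 6.17, 7.63 and 2.70, with siCDCA3-2 the low library. ZMAT3, an RNA-binding zinc finger protein, had under 0.5 in all 3 libraries (0.252, 0.235 and 0.481). Counting intervals, which cover counting error only, were narrow for all of these genes but ZMAT3, so the gaps between the siCDCA3 libraries exceeded sampling noise. On the log2(RPKM + 1) scale 6 of all members were at least 2-fold apart between siCDCA3-1 and siCDCA3-2, where 8.63% of genes tested were. They were GDF15, BBC3, BTG2, AEN, CCNG1 and GADD45A.

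Among the death and survival genes BAX lay close to siNC in both siCDCA3 libraries, whereas its trigger BBC3 was low in siCDCA3-2. BAX, which permeabilises the outer mitochondrial membrane, had 29.5, 28.3 and 31.4, with siNC between the siCDCA3 values. BBC3, the BH3-only protein PUMA that sets off BAX, had 4.21, 2.65 and 0.446, from 1013, 508 and 132 reads. Both siCDCA3 libraries were below siNC, at 62.8% (56.4% to 70.0%) and 10.6% (8.76% to 12.7%) of its level, and they differed from each other more than siCDCA3-1 did from siNC. For BBC3 edgeR gave a log2 fold change of -1.39 (standard error 0.85, unadjusted p = 0.1266). Its 4 listed transcripts gave nearly the same picture, with differences from -0.570 to -0.516 in siCDCA3-1 and from -1.85 to -1.75 in siCDCA3-2.

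The 2 death receptors among the members were lower in value but did not pass the test. FAS, the receptor for Fas ligand, had 1.70, 1.05 and 1.18, and TNFRSF10B, the TRAIL receptor DR5, had 10.3, 6.57 and 8.95. Both genes were below siNC in each siCDCA3 library, with edgeR log2 fold changes of -0.60 (standard error 0.61) for FAS and -0.41 (0.48) for TNFRSF10B. TNFRSF10A, the other TRAIL death receptor, which is no member and is named only because its values had been seen, had 4.10, 2.45 and 5.95, on either side of siNC. PHLDA3, which blocks the survival kinase AKT, had 19.2, 15.3 and 12.9 and was likewise lower in each. AEN, a nuclease that promotes apoptosis, had 3.83, 2.35 and 6.54, on either side of siNC. TP53INP1, a stress protein of the nucleus and of autophagy, had 1.46, 2.16 and 0.975, also on either side but in the opposite order. TRIAP1, a small mitochondrial protein that opposes apoptosis, had 7.04, 8.69 and 13.9 and was above siNC in both, at 124% (113% to 135%) and 198% (184% to 212%).

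Of the repair genes, DDB2 was below siNC in both siCDCA3 libraries. DDB2, which recognises ultraviolet damage in chromatin and has the best matching element shown above, had 11.8, 8.51 and 6.78. edgeR gave it a log2 fold change of -0.61 (standard error 0.51, unadjusted p = 0.2577). XPC, which recognises the same lesions, had 3.58, 4.06 and 2.55, so the libraries lay on either side of siNC. RRM2B, the p53-inducible subunit of ribonucleotide reductase that supplies nucleotides for repair, had 1.58, 0.504 and 1.63 and was low in siCDCA3-1 only, at 31.9% of siNC (27.7% to 36.6%). POLH, the polymerase that copies past ultraviolet lesions, was low throughout, with 0.830, 0.835 and 1.12.

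The members with a matched element did not share a direction in both libraries. DDB2, FDXR, FAS and MDM2 were lower than siNC in each siCDCA3 library, with MDM2 the least so. AEN was lower in siCDCA3-1 as well but higher in siCDCA3-2. Over all genes tested, 58.6% were lower in siCDCA3-1 and 45.6% in siCDCA3-2. The share lower in both libraries was not counted, so nothing is read from these directions. None of the 5 members with an element passed the test.

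GDF15 was the member that differed most. It encodes a secreted cytokine of the TGF-beta superfamily, and besides p53 it is known to be induced by the integrated stress response, in which ATF4 and CHOP switch on genes of amino acid supply. GDF15 (NM_004864.3, GRCh38 chr19:18386158-18389176) had 16.1, 4.34 and 0.214, from 2938, 633 and 48 reads. Both siCDCA3 libraries were far below siNC, at 27.0% (24.7% to 29.4%) and 1.33% (0.976% to 1.76%) of its level, and siCDCA3-2 was again far below siCDCA3-1. By level it ranked 5th of the 29 genes in siNC, 14th in siCDCA3-1 and 28th in siCDCA3-2.

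For GDF15 edgeR gave a log2 fold change of -2.75 (standard error 1.03, unadjusted p = 0.01967, adjusted p = 0.9997). Without the filter on low genes, edgeR called GDF15 lower (log2 fold change -2.79, adjusted p = 0.001928), among the 0.0959% of 18761 genes called lower in that fit, where 0.0213% were called higher. In that fit GDF15 was the only member called.

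The 250 bases before the GDF15 start site (RefSeq, GRCh38.p14, chr19:18385908-18386157, plus strand) are shown because this is the gene whose level differed most. The capitals mark TATAAA, the letters of a TATA box, which begin at position -29 from the start and were present on either strand in 11.5% of all windows.
GDF15: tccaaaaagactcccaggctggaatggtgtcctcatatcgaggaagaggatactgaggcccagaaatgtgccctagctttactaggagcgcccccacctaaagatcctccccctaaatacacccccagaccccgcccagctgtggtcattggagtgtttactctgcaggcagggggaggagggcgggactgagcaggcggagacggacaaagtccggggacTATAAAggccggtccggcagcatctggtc
The letters TGATGNAA, read on both strands, are typical of sites bound by ATF4 with a C/EBP partner. They were in 3.62% of all windows and, counted by gene, in 1 member, PLK3. Among the stress response genes named below they were in the windows of ASNS, CHAC1 and ATF3. Neither these letters nor a p53 element was in the GDF15 window, which says nothing about sites elsewhere.

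Genes of the integrated stress response were low in the same libraries. All 6 that were listed (ATF4, DDIT3, ATF3, TRIB3, ASNS and CHAC1) were below siNC in each siCDCA3 library, with median log2 differences of -2.37 (siCDCA3-1) and -2.29 (siCDCA3-2). Over all genes tested, 58.6% were lower in siCDCA3-1 and 45.6% in siCDCA3-2. The share of genes tested that were lower in both libraries was not counted. The edgeR test called 2 of the 6 lower, ASNS and CHAC1, beside 0.0295% of all genes tested. This list was chosen with earlier results of these data known, so these counts are a description and not independent support. ATF4, the central transcription factor, had RPKM of 83.1, 33.3 and 36.7, and DDIT3, which encodes CHOP, had 10.7, 2.43 and 1.52. The difference of siCDCA3-2 from siCDCA3-1 for GDF15 was -2.14 on the log2(RPKM + 1) scale. On the same scale it was -0.446 for DDIT3 and -0.507 for CHAC1. It was 0.136 for ATF4, 0.229 for ATF3, 0.592 for TRIB3 and 0.250 for ASNS. The part of the stress response in the GDF15 difference was not tested.

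**Figure D3:**
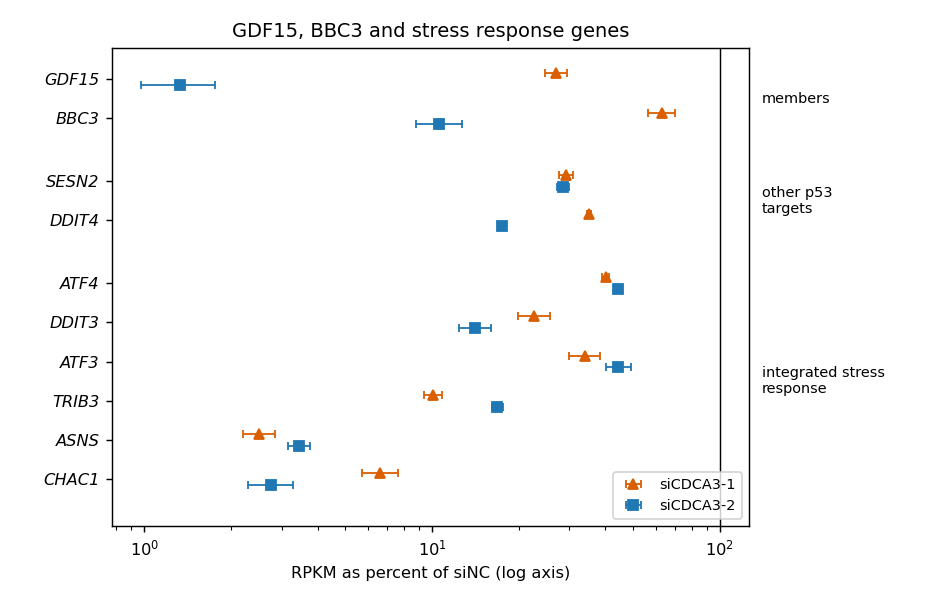
RPKM as a percent of siNC (log axis) in siCDCA3-1 (triangles) and siCDCA3-2 (squares) for GDF15 and BBC3, the p53 targets SESN2 and DDIT4, and 6 integrated stress response genes, with exact 95% binomial intervals that cover counting error only. GDF15, BBC3, SESN2 and DDIT4 were picked for being low, at least 2-fold in both siCDCA3 libraries or, for BBC3, in siCDCA3-2. SESN2 and DDIT4 come from a list of 40 genes, of which 22 were lower in siCDCA3-1 and 20 in siCDCA3-2, beside 58.6% and 45.6% of genes tested. Nothing is therefore read from all points lying below 100%. On this axis the libraries are farthest apart for GDF15 (27.0% and 1.33%).

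The other metabolic genes were nearer to siNC. FDXR, the ferredoxin reductase of mitochondrial electron transfer, had 14.4, 10.4 and 8.88, lower in both siCDCA3 libraries (edgeR log2 fold change -0.56, standard error 0.49). SESN1, a sestrin that restrains mTORC1, had 1.27, 1.41 and 2.52. TP53I3, a quinone oxidoreductase-like enzyme, had 7.81, 10.1 and 8.14, and for both of these genes siNC was the lowest library. TIGAR, which lowers the glycolytic activator fructose bisphosphate, had 0.349, 0.352 and 0.620. SPATA18, which serves mitochondrial quality control, was close to absent, with 89, 22 and 24 reads and RPKM of 0.155, 0.0479 and 0.0339.

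A further 40 p53 targets were examined from a list outside the members, of which 30 passed the filter on low genes. None passed the edgeR test. Their median log2 differences were -0.026 in siCDCA3-1 and -0.006 in siCDCA3-2, beside -0.067 and 0.046 over all genes tested. Of the 40, 22 and 20 were lower, beside 58.6% and 45.6% of genes tested. The 40 include genes under the filter, whose differences the pseudocount shrinks, so the 2 sets are unlike. On the log2(RPKM + 1) scale 2 of them, SESN2 and DDIT4, were at least 2-fold lower in both libraries, where 0.719% of genes tested were. On that scale 0 were 2-fold higher in both, beside 0.0985%. SESN2, a sestrin that also senses leucine for mTORC1, had RPKM of 14.1, 4.12 and 4.02, so both siCDCA3 libraries were about equally low (edgeR adjusted p = 0.9997, 0.001903 before adjustment). DDIT4, the mTORC1 inhibitor REDD1, was the most abundant gene of the list, with 382, 134 and 66.7 (edgeR adjusted p = 0.9997, 0.005285 before adjustment). Both of these genes, like GDF15, are also known targets of the integrated stress response, whose part in their levels was not tested. SFN, the 14-3-3 sigma protein of the G2 checkpoint and the next most abundant, had 68.9, 40.8 and 98.1, on either side of siNC. PMAIP1, the BH3-only protein NOXA, had 13.6, 5.67 and 14.8, and PERP, a membrane protein of desmosomes and apoptosis, had 56.8, 24.4 and 59.5. PMAIP1 and PERP were chosen after their values were seen, and both were low in siCDCA3-1 only, as GADD45A, PLK3 and RRM2B were.

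Most regulators and relatives of p53 lay within 0.5 of siNC on the log2(RPKM + 1) scale. The share was 82.6% in siCDCA3-1 (83.9% of genes tested) and 87.0% in siCDCA3-2 (74.2%), a comparison that was not tested. Of 23 listed genes, 22 passed the filter, none passed the edgeR test, and 0 were 2-fold different in the same direction in both libraries. The median log2 differences were 0.028 and 0.112, beside -0.067 and 0.046 over all genes tested. The most abundant were the ribosomal proteins RPL11 (RPKM 384, 386 and 386) and RPL5 (356, 364 and 374), which bind and restrain MDM2 when ribosome assembly fails. CDKN2A, read here through a transcript of the locus that encodes p16 and the MDM2 inhibitor ARF, had 119, 129 and 131. TP63, the p53 relative that maintains basal epithelial cells, had 16.04, 6.30 and 12.4, lower in both siCDCA3 libraries and 2-fold lower in siCDCA3-1 (edgeR log2 fold change -0.79, standard error 0.51). CDKN2A and TP63 were chosen after their values were seen.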

How the data were processed

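Per the labels' protocols, total RNA was depleted of ribosomal RNA and libraries were read in pairs on an Illumina HiSeq. Per the submitters' processing notes, the authors used Trimmomatic 0.36, FastQC, HISAT2 and HTSeq, and both a human and a mouse build are listed without a role. Per the file headers, the deposited table gives a whole-number count and an RPKM for each RefSeq transcript and library. The RPKM values were scaled by the authors with a single total per library, recovered here as 130459616 (siNC), 104153360 (siCDCA3-1) and 160640877 (siCDCA3-2). Coordinates come from RefSeq's GRCh38.p14 gene list, in which 98.6% of the accessions were found.

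For each gene the transcript with the most counts was kept. edgeR 4.0.16 (R 4.3.3; TMM scaling, quasi-likelihood test, two-sided, Benjamini-Hochberg adjustment) compared siCDCA3 with siNC over genes whose mean RPKM reached 1, with a threshold of 0.05. Each standard error is the size of the log2 fold change divided by the square root of F. DESeq2 1.42.0, limma 3.58.1 on log2(RPKM + 1), RLE scaling, no filter, a mean RPKM of at least 5, the longest transcript, pseudocounts of 0.1 and 0.5, and each siCDCA3 library left out were alternatives. The scripts were tested on simulated data. Counting intervals of ratios are Clopper-Pearson binomial intervals at 95%, exact for counting error only. All 29 members are named, and of the other lists the genes called, those 2-fold different in both libraries and the 2 most abundant. PMAIP1, PERP, TNFRSF10A, CDKN2A and TP63 fall outside that rule and were chosen after their values were seen. The members and lists were chosen with earlier results of these data known. The sources used here do not say whether strand was kept or counted. Exons of 9 members overlap those of another gene in GENCODE v29, so reads of such pairs cannot be told apart.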

Additional observations from a re-analysis of the deposited data

How the results depend on the processing

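Over all genes edgeR called 3 genes. DESeq2 called 10, edgeR without a filter 22, and 0 were called by limma (lowest adjusted p 0.1462) or by edgeR at a mean RPKM of at least 5 (lowest adjusted p 0.1032), with 121 and 74 genes at an unadjusted p under 0.05. RLE scaling and the longest transcript each gave 3. Of the members, 0 were called under DESeq2, limma, RLE scaling, the longest transcript and a mean RPKM of at least 5, and 1 (GDF15) was called without a filter, for which the cause was not tested. The count of members 2-fold different from siNC in both libraries was 1 under every pseudocount, filter, scaling and transcript choice tried, and from 2 to 3 when it rested on 1 siCDCA3 library. Of 135 member values under another tool, scaling, filter or transcript, 133 kept their direction and side of the threshold. BAX turned from 0.026 to -0.034 without a filter. With 1 siCDCA3 library left out there is no residual spread and no test, and the direction differed between the siCDCA3 libraries for 9 of the 24 members tested. The share of all genes tested for which it differed was not counted, so nothing about the members is read from this. No paired analysis was possible because siNC has 1 library whose label carries no replicate number. SPATA18, with 22 and 24 reads, is the member that depth limits most.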
